A study of Mus musculus with 6 samples.

Results

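Complement is a set of plasma proteins, cell-surface regulators and receptors that tag and lyse targets and call in leukocytes. Complement transcripts were examined in regenerating mouse liver, using 31 genes of components and regulators given by name. One of them, given as C1s, was read as its mouse symbol C1s1. A probe was matched through its RefSeq accession for 30 of the 31 genes. C7, a terminal component, had no matched probe. C5ar1, the receptor of the anaphylatoxin C5a, was not tested because it was not well above background on all arrays of either group, which left 29 genes among the 13582 tested on the arrays.

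Livers came from male C57BL/6J mice 3 days after surgery. PVBL mice had their left portal vein branch tied, and the unligated right lobe was taken as the regenerating side. Sham mice, the controls, were operated on without ligation, and their livers were taken after the same time. Each group had 3 samples on 1 single-colour array each. Whether the samples of a group are separate animals is not stated in the labels, and the p-values reflect variation among these arrays, some of which may be technical. The age of the mice is not given in the labels.

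The liver makes most of the complement in blood. Hepatocytes secrete C3, most of the terminal components, the mannose-binding lectins and the soluble regulators. C1q comes mainly from macrophages, which in liver are the Kupffer cells. The classical, lectin and alternative pathways all lead to cleavage of C3 and then to assembly of the terminal membrane attack complex. In partial hepatectomy of mice, the fragments of C3 and C5 are known to take part in liver regrowth.

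Promoter stretches are shown for some members whose contrasts recur below. These are the lectin genes Mbl1 and Mbl2, whose ratio differed between the groups, the C1q genes C1qb and C1qc, and C4bp, the member that rose. The levels of C1qa varied like those of C1qb and C1qc, but no PU.1 match was found for C1qa, which is not shown. The stretches come from RefSeq (build GRCm38.p6) and run 5′ to 3′ on the strand of the gene. They hold 250 bases before and 50 bases from the annotated start. The stretches are chr14:41151206-41151505 (plus strand, Mbl1), chr19:30232678-30232977 (plus strand, Mbl2), chr4:136886151-136886450 (minus strand, C1qb), chr4:136892865-136893164 (minus strand, C1qc) and chr1:130661569-130661868 (minus strand, C4bp). Of the 31 genes 23 had an entry, with 25 stretches in all. Capitals mark the longest run of bases that Mbl1 and Mbl2 share, the core letters of PU.1, a myeloid transcription factor, in C1qb and C1qc (on the opposite strand, so printed as their complement), and the HNF1 letters, read by a hepatocyte transcription factor, in C4bp.
Mbl1: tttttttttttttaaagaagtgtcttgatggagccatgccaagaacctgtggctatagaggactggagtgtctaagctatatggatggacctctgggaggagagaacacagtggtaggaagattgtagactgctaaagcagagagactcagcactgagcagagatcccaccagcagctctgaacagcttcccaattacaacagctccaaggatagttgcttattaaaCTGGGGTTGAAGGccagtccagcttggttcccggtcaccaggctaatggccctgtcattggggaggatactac
Mbl2: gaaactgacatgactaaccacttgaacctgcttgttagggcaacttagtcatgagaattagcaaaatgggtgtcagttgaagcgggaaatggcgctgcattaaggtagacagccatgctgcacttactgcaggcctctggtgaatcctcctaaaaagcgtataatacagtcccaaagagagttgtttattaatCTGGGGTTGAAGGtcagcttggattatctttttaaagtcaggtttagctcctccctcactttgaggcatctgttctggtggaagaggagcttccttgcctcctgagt
C1qb: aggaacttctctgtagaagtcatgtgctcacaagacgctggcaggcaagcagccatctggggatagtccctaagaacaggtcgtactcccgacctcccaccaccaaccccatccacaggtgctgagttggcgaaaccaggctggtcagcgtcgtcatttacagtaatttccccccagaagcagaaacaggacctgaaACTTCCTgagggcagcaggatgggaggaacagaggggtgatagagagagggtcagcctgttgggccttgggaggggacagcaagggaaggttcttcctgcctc
C1qc: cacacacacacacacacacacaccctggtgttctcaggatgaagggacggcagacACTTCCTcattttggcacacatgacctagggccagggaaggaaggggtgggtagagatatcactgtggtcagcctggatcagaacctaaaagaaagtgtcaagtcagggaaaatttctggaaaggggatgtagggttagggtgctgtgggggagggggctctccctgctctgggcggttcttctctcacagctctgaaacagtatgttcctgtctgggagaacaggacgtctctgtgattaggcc
C4bp: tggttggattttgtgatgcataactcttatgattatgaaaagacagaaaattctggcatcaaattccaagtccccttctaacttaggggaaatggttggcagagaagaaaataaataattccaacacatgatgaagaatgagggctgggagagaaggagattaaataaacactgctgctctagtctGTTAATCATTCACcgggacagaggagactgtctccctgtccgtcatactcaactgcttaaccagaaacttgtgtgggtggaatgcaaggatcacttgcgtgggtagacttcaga

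The shared run of the Mbl1 and Mbl2 stretches was 13 bases long and began at position -23 from the start of Mbl1 and at -57 from that of Mbl2. It was found in 3 of the 32851 stretches of this length in the table, those of Mbl1 and Mbl2 among them. In a window of 43 bases around it the Mbl1 and Mbl2 stretches were identical at 33 positions, which include the 13 of the run itself. The PU.1 core was searched as AGGAAGT on both strands and occurred in 9.35% of all stretches and in 4 of the 25 of the members, those of C1qb, C1qc, C5ar1 and Masp2. The HNF1 pattern, also searched on both strands, occurred in 0.0578% of all stretches and in 1 of the 25, that of C4bp, at positions -64 to -52 from the start. The patterns were chosen after the stretches had been read, and a match is a description of letters, not of binding.

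Levels are given as log2 of the processed signal relative to the 75th percentile of the array, so 0 is the signal of that percentile and a step of 1 is a doubling. The 75th percentile lay at 331 to 407 signal units on the PVBL arrays and at 203 to 315 units on the sham arrays, and 48.1% to 53.6% of probes were well above background. All 6 arrays lay on 1 slide, PVBL in slide row 2 and sham in row 1, and effects of the row cannot be told apart from those of surgery. PVBL 3 stood apart from PVBL 1 and PVBL 2 on the second principal component, which held 11.9% of the variance over all genes, and values that rest on it are given with and without it. The 10 hepatocyte markers were all well above background on every array, and their median level was 8.56, 8.71 and 8.25 in PVBL 1 to 3 and 8.98, 8.94 and 9.09 in sham 1 to 3.

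Complement transcripts were more often lower than higher in the PVBL lobe. In limma with Benjamini-Hochberg adjustment over all genes, 13 of the 29 tested members fell and 1 rose at an adjusted p under 0.05, against 17.8% of all tested genes that fell and 15.1% that rose. Their median log2 difference was -0.49, against -0.10 over all tested genes, and 24 of the 29 lay below 0, against 57.6% of all genes. The groups did not overlap for 19 members, against 51.5% of all genes. Of these members 17 were lower in PVBL, against 29.1% of all genes, and 2 were higher, against 22.3%. The falls were mostly under 2-fold: at least that size and past the threshold were Cfd, Cd59a and C8g, or 3 of 29, against 4.6% of all genes.

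The fall was not shared by all hepatocyte-made members. Of the 21 components and regulators taken as hepatocyte products, 11 fell, against 17.8% of all genes, 1 rose, against 15.1%, and 9 did not pass, with a median of -0.49. Of the macrophage-made components and receptors, C1qa, C1qb, C1qc, Cfp and C3ar1 were tested and none passed limma's threshold, nor an unadjusted p under 0.05, with a median of -0.42. Their spread differed: the median SD between PVBL arrays was 0.80 for the macrophage-made members and 0.21 for the hepatocyte-made ones, against 0.094 and 0.13 between sham arrays. In these bulk samples fewer cells of a type and less RNA per cell cannot be told apart.

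The median log2 difference of the 10 hepatocyte markers was -0.37, against -0.10 over all tested genes. All 10 lay below 0, against 57.6% of all genes, and 5 were lower without overlap between the groups, against 29.1%. Of these markers 2 fell, a share near the 17.8% of all genes: Apoh, a plasma apolipoprotein, whose call was lost without sham 1 or sham 2, and F2, prothrombin, whose call was lost without PVBL 1, sham 1 or sham 3. The median level of the markers on each array averaged 8.506 in PVBL and 9.001 in sham, a difference of -0.50. Most of the complement calls depended on the scaling. When each array was scaled on the median of the hepatocyte markers, a scaling added once the data had been seen that takes out this -0.50, the median of the hepatocyte-made members was 0.00096 and the median of all tested genes 0.39. With that scaling 3 of the 29 members were called lower, Cfd, Cd59a and C8g, against 3.25% of all genes. C4bp, Mbl2, C6, Clu and Masp1, or 5 of 29, were called higher, against 36.8% of all genes, so the share of members was below that of all genes. With scaling on spike-in probes the median of all genes was 0.33 and 1.23% of all genes were called lower, among them Cfd, the 1 member called, while 10.9% of all genes and 0 members were called higher. Without a filter on dim probes the calls of C1ra, Masp2, Mbl1, Hc, C9, C4bp, Serping1 and Vtn were lost, with adjusted p from 0.0501 to 0.0912, while the share of all genes called lower was 7.90%. Directions below are those with the 75th percentile and are relative to the other genes on the array.

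**Figure D1:**
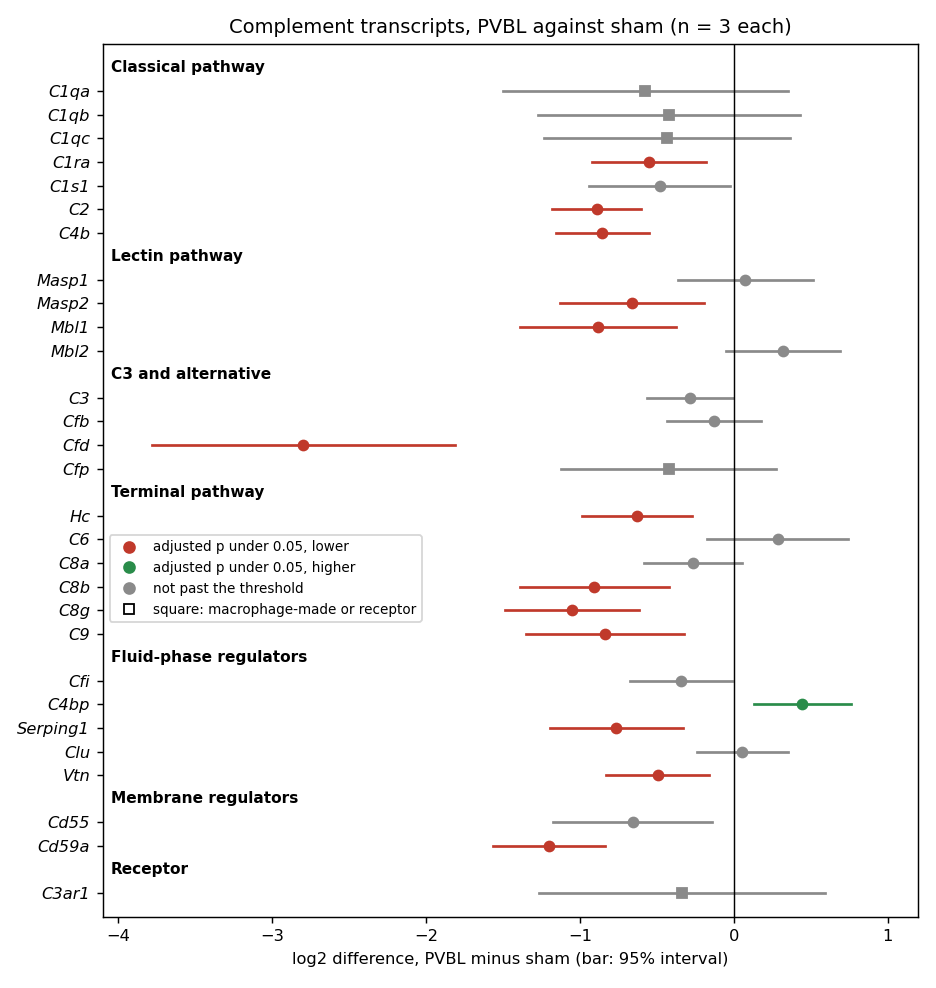
Log2 difference, PVBL minus sham, of the 29 tested complement genes on the horizontal axis, grouped by role, with 95% intervals from limma (3 arrays per group). The 13 lower members are red, C4bp is the single higher one in green, and grey members did not pass the threshold; Cfd lies farthest from 0 at -2.80, and with hepatocyte marker scaling Vtn was at 0.00096.

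In the classical pathway C2, C4b and C1ra, which act after C1q has bound, fell. C2, the catalytic part of the classical C3 convertase, had log2 levels of 5.98, 5.79 and 5.97 in PVBL 1 to 3, against 6.90, 6.70 and 6.81 in sham 1 to 3. C4b, the other part of that convertase, had 8.13, 8.38 and 8.11 in PVBL, against 9.095, 8.98 and 9.11 in sham. Every PVBL array lay below every sham array for both genes. C2 was 1.85-fold lower (log2 difference -0.89 ± 0.12, SE, n = 3 per group, adjusted p = 0.00262) and C4b 1.81-fold lower (-0.85 ± 0.13, adjusted p = 0.00354). Both calls held without any 1 array and were lost with spike-in and hepatocyte marker scaling. The probe of C4b may also meet the near-identical C4a.

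C1ra, the protease that activates C1s within the C1 complex, had log2 levels of 6.27, 6.12 and 5.84 in PVBL, against 6.80, 6.60 and 6.49 in sham. It was 1.46-fold lower (-0.55 ± 0.16, adjusted p = 0.0347), and its second probe gave -0.57. The call of C1ra was lost without PVBL 2, PVBL 3 or any 1 sham array (-0.62 to -0.43). It was also lost under every other scaling of the arrays and with normexp, another background correction. C1s1, which C1r cleaves and whose gene lies next to C1ra, did not overlap between the groups but did not pass the threshold (-0.48 ± 0.19, adjusted p = 0.0965). Its PVBL levels were 6.13, 5.47 and 6.04, against 6.51, 6.27 and 6.30 in sham, and PVBL 2 was the lowest.

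C1q, the hexameric protein that recognises antibody on a target, is built from the products of C1qa, C1qb and C1qc, which neighbour each other with no other protein-coding gene between them. C1qa had log2 levels of 1.83, 1.45 and 3.104 in PVBL 1 to 3, against 2.59, 2.75 and 2.77 in sham. C1qb had 1.80, 1.44 and 2.96 in PVBL, against 2.43, 2.46 and 2.57 in sham. C1qc had 2.73, 2.54 and 3.91 in PVBL, against 3.40, 3.52 and 3.56 in sham. For all 3 genes PVBL 1 and PVBL 2 lay below every sham array and PVBL 3 above every one. Over all arrays none passed (C1qa -0.58 ± 0.39, adjusted p = 0.290; C1qb -0.42 ± 0.36, adjusted p = 0.397; C1qc -0.43 ± 0.34, adjusted p = 0.354). Without PVBL 3 all 3 were called lower, C1qa at -1.06, C1qb at -0.87 and C1qc at -0.86 (adjusted p = 0.00531, 0.00872 and 0.00545). In that fit 18.8% of all genes were called lower, and the array left out is the one with the highest C1q levels.

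PVBL 3 was also the highest PVBL array for the remaining macrophage-made members. Cfp, properdin, which stabilises the alternative convertase and is made by leukocytes, had log2 levels of 3.31, 3.44 and 4.46 in PVBL, against 4.11, 4.10 and 4.27 in sham. For Cfp PVBL 3 was above and PVBL 1 and PVBL 2 below every sham array. Over all arrays Cfp was at -0.42 ± 0.30 (adjusted p = 0.302), and without PVBL 3 it was called lower at -0.79 (adjusted p = 0.00661). C3ar1, the receptor of C3a on myeloid cells, was dim, at -2.97, -4.14 and -2.61 in PVBL, where 2 of 3 arrays were above background, and at -2.90, -3.27 and -2.54 in sham. The groups overlapped (-0.34 ± 0.39, adjusted p = 0.534). C5ar1 was well above background on PVBL 3 alone, at -2.59, against -4.57 and -6.12 on PVBL 1 and PVBL 2 and -4.72, -4.52 and -4.63 in sham.

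Kupffer cell markers varied with these genes from array to array. Of the 10 markers in the list 8 were tested, and 6 did not pass. Marco alone rose, against 15.1% of all genes, and Mrc1 alone fell, against 17.8%. Clec4f, the lectin that defines Kupffer cells, was 1.31 higher on the log2 scale in PVBL 3 than in the mean of PVBL 1 and PVBL 2. The same difference was 1.47 for C1qa, 1.34 for C1qb, 1.27 for C1qc and 1.09 for Cfp, and over the 8 tested Kupffer markers it lay between 0.83 for Timd4 and 1.55 for Cd5l, with Csf1r at 0.86. Without PVBL 3, Clec4f (-1.01), Folr2 (-0.87), Adgre1 (-0.82), Csf1r (-0.80), Cd5l (-0.63) and Mrc1 (-1.55) were called lower, against 18.8% of all genes. In that fit Marco was called higher (2.13), against 16.3% of all genes, and Timd4 was not called (-0.24). Relative to Clec4f on the same array, C1qa was at -2.001, -2.33 and -2.01 in PVBL, against -2.25, -1.95 and -2.13 in sham, so the groups overlapped. The means of this ratio differed by -0.0046 for C1qa, 0.15 for C1qb, 0.14 for C1qc and 0.15 for Cfp, with exact two-sided permutation p of 1, 0.3, 0.3 and 0.3, where 0.1 is the smallest that 3 against 3 arrays allow. Clec4f was the only marker used for this ratio, and another marker would give other values. Between the groups the 8 tested Kupffer markers ranged from -1.17 for Mrc1 to 2.52 for Marco, with Clec4f at -0.57. Clec4f, Timd4, Cd5l, Csf1r, Folr2 and Adgre1, and Kdr, Reln and the neutrophil genes in the next lines, were named after their values were seen.

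The summed linear level of the Kupffer list, over its 9 genes with a probe and in units of the 75th percentile, was 109, 118 and 274 in PVBL, against 160, 143 and 160 in sham. The monocyte list, over 5 genes, summed to 8.41, 7.81 and 16.7 in PVBL, against 7.99, 8.10 and 7.35 in sham, and no member of it was called. Most markers of endothelial and stellate cells were also higher in PVBL 3 than in the mean of PVBL 1 and PVBL 2, Clec4g by 0.98 and Lrat by 1.03, while Kdr and Reln were lower there. Of the 6 tested neutrophil markers 5 were higher in PVBL 3 by the same measure, S100a8 by 2.41, S100a9 by 1.88, Retnlg by 1.68, Camp by 1.43 and Csf3r by 0.23, and Elane was lower. The part of these markers in the C1q result was not tested. Not all genes of the Kupffer list moved alike. Marco, a scavenger receptor, was 5.72-fold higher in PVBL (adjusted p = 0.00372). Mrc1, the mannose receptor, was 2.25-fold lower (adjusted p = 0.0290), a call lost without any 1 array other than PVBL 3. Which cells made the Mrc1 transcript was not tested.

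**Figure D2:**
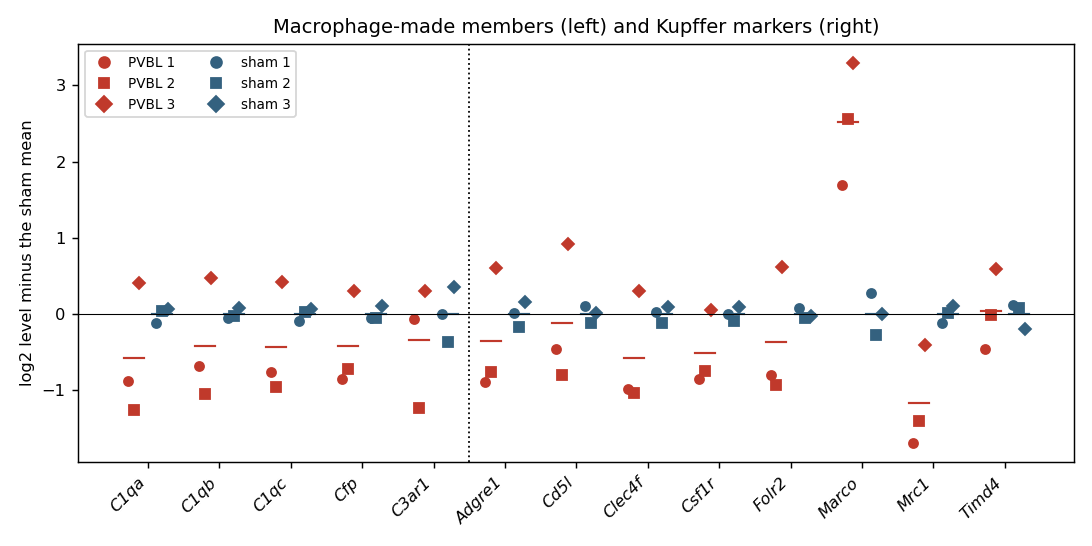
Log2 level of each array minus the sham mean of that gene, for the 5 tested macrophage-made members (left of the dotted line) and 8 Kupffer markers (right), with PVBL arrays in red left of sham arrays in blue and a short line at each mean. PVBL 3 (red diamonds) lies above PVBL 1 and PVBL 2 for all 13 genes; for C1qa it is at 0.40, while the mean of PVBL 1 and PVBL 2 is at -1.06.

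In the lectin pathway the mannose-binding lectins, which recognise sugars on microbes, differed from each other. Mbl1 had log2 levels of 4.65, 4.98 and 4.23 in PVBL, against 5.58, 5.27 and 5.66 in sham. Mbl2 had 8.90, 9.21 and 8.70 in PVBL, against 8.67, 8.52 and 8.65 in sham. Mbl1 was below and Mbl2 above every sham array in every PVBL array. Mbl1 fell 1.84-fold (-0.88 ± 0.21, adjusted p = 0.0206), while Mbl2 did not pass (0.32 ± 0.16, adjusted p = 0.154) but was called higher with quantile scaling (0.68) and hepatocyte marker scaling (0.81). Without PVBL 2 it was at 0.18 (adjusted p = 0.332). The call of Mbl1 was lost without PVBL 1, sham 1 or sham 3 (-0.90, -0.84 and -0.80).

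Within an array, the log2 ratio of Mbl2 over Mbl1 was 4.25, 4.22 and 4.47 in PVBL, against 3.09, 3.26 and 2.99 in sham. A scaling by 1 number per array leaves this ratio as it is. The ratio was 1.201 higher in PVBL (exact two-sided permutation p = 0.1, the smallest the design allows, and 0.2 after adjustment over the 10 gene pairs compared). The pair was chosen after its values were seen, and all 10 pairs with results of these data known. With 3 arrays a group every ratio without overlap gets a p of 0.1, so this p adds nothing to the lack of overlap.

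Of the proteases that act with these lectins, Masp2, which cleaves C4 and C2, had log2 levels of 5.65, 6.07 and 5.31 in PVBL, against 6.36, 6.42 and 6.23 in sham. It was 1.58-fold lower (-0.66 ± 0.20, adjusted p = 0.0413), and the call was lost without PVBL 1, PVBL 3 or any 1 sham array (-0.71 to -0.48). The call of Masp2 was also lost under every other scaling of the arrays. Its other probes lay at -0.60, and at -1.31 for a probe of another RefSeq transcript. In the fit over probes, where 30.5% of all were called, the second of these passed the threshold. Masp1, the protease that activates Masp2, overlapped between the groups (0.07 ± 0.19, adjusted p = 0.774), at 0.58 to 1.05 in PVBL and 0.54 to 0.97 in sham.

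C3, on which all routes meet, did not pass the threshold. Its log2 level was 10.16, 10.35 and 10.25 in PVBL, against 10.52, 10.48 and 10.62 in sham. The groups did not overlap, but the difference was small (-0.28 ± 0.12, adjusted p = 0.103), its second probe was at 0.0046, and it was above 0 with quantile (0.16), spike-in (0.15) and hepatocyte marker scaling (0.21). Cfb, factor B, the catalytic part of the alternative convertase, overlapped between the groups (-0.13 ± 0.13, adjusted p = 0.472), at 8.31 to 8.59 in PVBL and 8.49 to 8.68 in sham.

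C2 and Cfb are paralogous genes that lie side by side, in the gene order of GRCm38.p6, from which all neighbours here are taken. The log2 ratio of Cfb over C2 was 2.34, 2.74 and 2.62 in PVBL, against 1.77, 1.79 and 1.85 in sham, a difference of 0.76 with no overlap (exact two-sided permutation p = 0.1, 0.2 adjusted over the 10 pairs). This pair too was chosen with results known, and the lack of overlap fixes its p.

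Cfd, the serine protease factor D that cleaves factor B, showed the largest fall among the 29 tested members. Its log2 level was -2.98, -3.61 and -4.21 in PVBL, against -1.37, -1.03 and -0.018 in sham. All arrays were well above background, the groups did not overlap, and sham 3 was the highest. Cfd was 6.95-fold lower (-2.80 ± 0.42, adjusted p = 0.00357). With normexp background correction, which adds an offset that shrinks dim genes, the difference was -1.53, and Cfd was called under every alternative. Cfd is known as a product of fat cells, so the adipocyte list was set beside it. Adipoq and Plin1, which define fat cells, were not well above background on any array, and Lep was above it on all 3 sham arrays and on no PVBL array. Fabp4, which other cells also make, was 2.16-fold higher. The part of fat cells in the Cfd result was not tested.

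**Figure D3:**
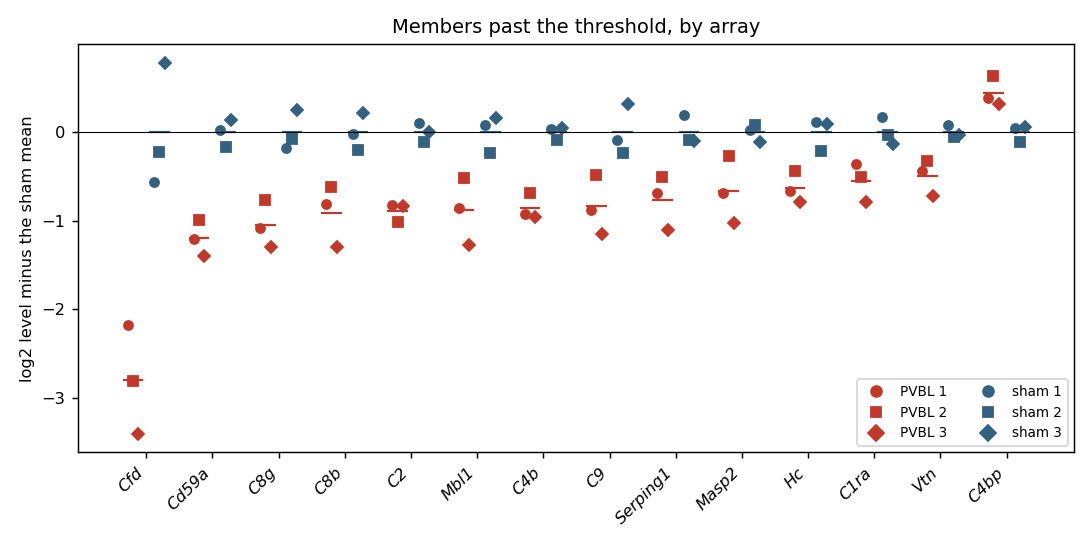
Log2 level of each array minus the sham mean for the 14 members past the threshold, ordered by their difference, with PVBL arrays in red left of sham arrays in blue and a short line at each mean. PVBL and sham points do not overlap for any of the 14; C4bp, at the right, is the single gene above its sham arrays.

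In the terminal pathway 4 of 6 tested members fell, against 17.8% of all genes. Hc, the mouse gene of C5, had log2 levels of 8.13, 8.36 and 8.004 in PVBL, against 8.90, 8.58 and 8.89 in sham. It was 1.55-fold lower (-0.63 ± 0.15, adjusted p = 0.0205), and the call was lost without PVBL 1, sham 1 or sham 3 (-0.61, -0.57 and -0.58). The call of Hc was also lost with quantile (-0.32), spike-in and hepatocyte marker scaling. C9, which forms the pore of the membrane attack complex, had 3.805, 4.19 and 3.53 in PVBL, against 4.60, 4.44 and 4.999 in sham. It was 1.79-fold lower (-0.84 ± 0.22, adjusted p = 0.0259), and the call was lost without PVBL 1, PVBL 3, sham 1 or sham 3 (-0.88 to -0.68). C6, which binds C5b, was at 4.72 to 5.08 in PVBL and 4.28 to 4.91 in sham, overlapped and did not pass (0.29 ± 0.19, adjusted p = 0.288).

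Of the 3 chains of C8, C8g and C8b fell. C8g, the lipocalin chain, had log2 levels of 8.31, 8.63 and 8.09 in PVBL, against 9.22, 9.32 and 9.64 in sham. C8b had 6.37, 6.57 and 5.89 in PVBL, against 7.16, 6.98 and 7.40 in sham. C8a had 6.67, 6.83 and 6.56 in PVBL, against 7.09, 6.82 and 6.94 in sham. C8g and C8b did not overlap between the groups and PVBL 3 was the lowest array for both, while C8a overlapped. C8g was 2.07-fold lower (-1.05 ± 0.18, adjusted p = 0.00643), also with its second probe (-1.08) and without any 1 array, but the call was lost with spike-in scaling (-0.62). C8b was 1.88-fold lower (-0.91 ± 0.21, adjusted p = 0.0162), a call lost without sham 1 or sham 3 (-0.92 and -0.80). C8a did not pass (-0.27 ± 0.13, adjusted p = 0.166), and its second probe lay at 0.34.

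C8a and C8b neighbour each other in the genome. The log2 ratio of C8a over C8b was 0.30, 0.26 and 0.67 in PVBL, against -0.069, -0.16 and -0.47 in sham, and that of C8a over C8g was 0.79 higher in PVBL. Both ratios were without overlap (exact two-sided permutation p = 0.1 each, 0.2 adjusted over the 10 pairs). These pairs too were chosen with results known, and the lack of overlap fixes their p.

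**Figure D4:**
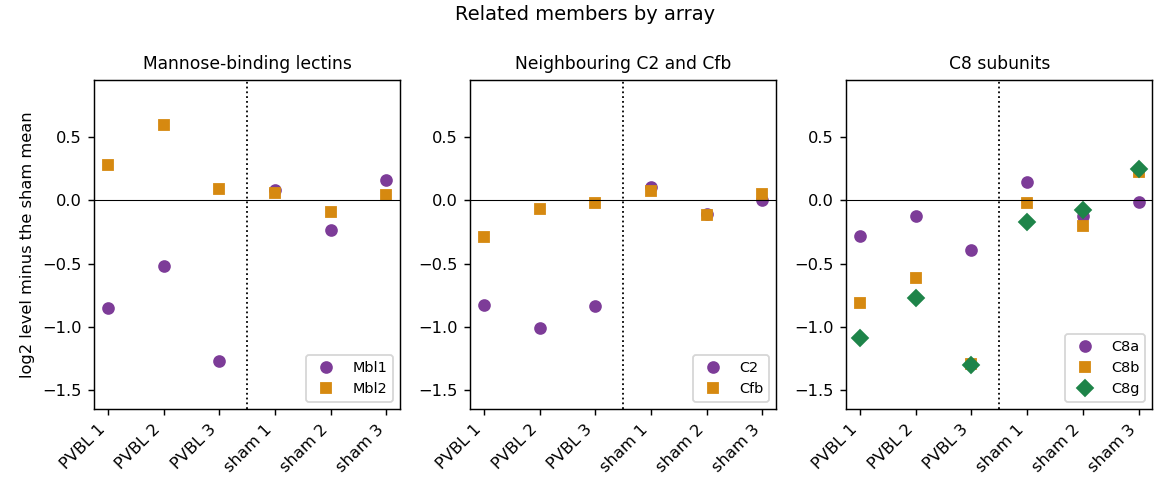
Log2 level of each array minus the sham mean of the gene, PVBL 1 to 3 left and sham 1 to 3 right of the dotted line, for Mbl1 and Mbl2, for C2 and Cfb, and for C8a, C8b and C8g. In PVBL Mbl1 lies below and Mbl2 above 0 on every array, C2 lies below Cfb, and C8b and C8g lie below C8a, by 0.64 and 0.79 relative to sham.

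The fluid-phase regulators moved both ways. Serping1, the inhibitor of C1r, C1s and the MASPs, had log2 levels of 7.55, 7.73 and 7.13 in PVBL, against 8.42, 8.15 and 8.13 in sham. It was 1.70-fold lower (-0.76 ± 0.18, adjusted p = 0.0198), its second probe was at -0.60, and the call was lost without sham 1 or sham 2 (-0.67 and -0.81). Vtn, vitronectin, which binds the nascent terminal complex, had 8.98, 9.097 and 8.69 in PVBL, against 9.504, 9.37 and 9.38 in sham. It was 1.41-fold lower (-0.49 ± 0.14, adjusted p = 0.0358), a call lost without PVBL 1, PVBL 3 or any 1 sham array (-0.52 to -0.38). The call of Vtn was also lost with normexp and under every other scaling of the arrays.

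C4bp, the cofactor with which factor I cleaves C4b, was the only member called higher. It had log2 levels of 8.16, 8.41 and 8.09 in PVBL, against 7.82, 7.66 and 7.83 in sham, without overlap. The rise was 1.36-fold (0.45 ± 0.13, adjusted p = 0.0414), and the call was lost without PVBL 1, PVBL 2 or any 1 sham array (0.35 to 0.48). It was called with quantile and hepatocyte marker scaling, at 0.73 and 0.94, and missed the threshold with spike-in scaling (0.88, adjusted p = 0.188). Cfi, factor I itself, lay at 7.99 to 8.34 in PVBL and 8.51 to 8.66 in sham and did not pass (-0.34 ± 0.14, adjusted p = 0.100). Clu, clusterin, which also binds the terminal complex, overlapped between the groups (0.05 ± 0.13, adjusted p = 0.753) and was called higher with quantile scaling (0.46).

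Of the regulators on cell membranes, Cd59a, which blocks the insertion of C9, had log2 levels of 3.19, 3.41 and 3.00 in PVBL, against 4.42, 4.23 and 4.54 in sham. It was 2.30-fold lower (-1.20 ± 0.15, adjusted p = 0.00204) without overlap, and of the alternatives run only spike-in scaling ended the call (-0.77, adjusted p = 0.276). Cd55, which speeds the decay of convertases, had 0.61, 1.18 and 1.44 in PVBL, against 1.77, 1.61 and 1.82 in sham. It missed the threshold (-0.66 ± 0.22, adjusted p = 0.0559), and was called without PVBL 3 (-0.84, adjusted p = 0.0209). Cd55 and C4bp lie 1 protein-coding gene apart, and the ratio of C4bp over Cd55 was 1.10 higher in PVBL on the log2 scale, without overlap (exact two-sided permutation p = 0.1, 0.2 adjusted). This pair too was chosen with results known, and the lack of overlap fixes its p.

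Some complement genes outside the 31 fell too. Of 32 further complement genes 26 were tested, 10 fell, against 17.8% of all genes, and none rose, against 15.1%. Their median was -0.43, against -0.10 over all genes, and 22 of the 26 were below 0, against 57.6%. The collectin genes Colec10 and Colec11, soluble recognition lectins, were 2.68-fold and 2.10-fold lower. Crp, a pentraxin, was 1.88-fold lower and C5ar2, the second C5a receptor, 1.71-fold lower, a call lost without any 1 array other than PVBL 3. Vsig4, a Kupffer cell receptor of C3 fragments that was named after its values were seen, was at -0.52 ± 0.37 (adjusted p = 0.310), was called lower without PVBL 3 (-0.996) and was 1.41 higher in PVBL 3 than in the mean of PVBL 1 and PVBL 2.

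The acute-phase list, genes that inflammation drives and mostly of plasma proteins, was set beside the complement genes. Of its 14 tested members 4 fell, against 17.8% of all genes, and 1 rose, against 15.1%. Those that fell were the fibrinogen chains Fga, Fgb and Fgg and Itih4. Itih4 was 1.72-fold lower and Fga 1.83-fold, and the calls of Fga and Fgb were lost without sham 1, that of Fgb without sham 2 and that of Fgg without PVBL 1. Lcn2, lipocalin 2, was 7.07-fold higher and 4.42-fold higher without sham 3. For the remaining marker lists the same shares of all genes, 17.8% lower and 15.1% higher, are the background. None of 6 tested neutrophil, 3 dendritic cell, 4 B cell and 2 mesothelial markers was called. Of 4 T and NK cell markers 1 fell (Cd3d, 1.98-fold). Of 8 endothelial markers 2 fell, Clec4g and Oit3, and the call of Oit3 was lost without any 1 array other than PVBL 3. Of 8 stellate markers 3 rose and 1 fell, and of 5 biliary markers 3 rose and 1 fell. Krt7, 1 of the 3 biliary genes that rose, was above background on 3 of 3 PVBL and 2 of 3 sham arrays. It passed the filter through PVBL alone. Cftr, the biliary gene that fell, was above background on 1 of 3 PVBL and 3 of 3 sham arrays. It passed the filter through sham alone. Among the monocyte, neutrophil, dendritic cell, B cell and mesothelial markers, 1 gene had an unadjusted limma p under 0.05, the B cell gene Cd79a, which was also above background on 1 of 3 PVBL and 3 of 3 sham arrays and passed the filter through sham alone.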

How the data were processed

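Liver RNA of 6 samples, 3 PVBL and 3 sham, was read on single-colour Agilent arrays of design 028005. The deposited files give intensity values per spot, already corrected for background by Agilent Feature Extraction, version 10.7.3.1 per the file headers and 9.1 per the submitters' processing notes. The deposited series table holds log2 values. It matched the scaled scanner intensities centred per probe (r of at least 0.9997 on each array), so its direction is settled and its levels are lost. Its column medians lay between -0.22 and -0.15 on PVBL arrays and between 0.15 and 0.18 on sham arrays, and it was used as an alternative only.

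Control and outlier spots were removed, repeated spots averaged on the log2 scale, and the 75th percentile over 55681 probes was subtracted. A probe was tested if every array of 1 group or of both had it well above background. Genes were named through RefSeq accessions (GRCm38.p6 table, names only, while the array is annotated on mm9), which gave a symbol to 26413 probes, and the brightest probe stood for a gene. PVBL was set against sham in limma 3.58.1 (R 4.3.3, lmFit, eBayes, two-sided, Benjamini-Hochberg over all genes, threshold 0.05), which was tested on simulated data. SE is limma's, SD is over 3 arrays. A gene of which an array's only spot was an outlier was fitted on the other arrays, which touched no member. With 3 arrays a group, their number sets the precision.

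The members, the lists (further complement genes, acute-phase genes, and markers of hepatocytes, Kupffer cells, monocytes, neutrophils, dendritic, B, T and NK, stellate, endothelial, biliary, mesothelial and fat cells) and the split into hepatocyte-made and macrophage-made were chosen with earlier results of these data known. Every called member and C1qa, C1qb, C1qc, C3, C3ar1 and C5ar1 were given by array. From the further complement genes at most 6 called members with the largest change were named, and from other lists at most 3, unless said otherwise. Exceptions were the acute-phase list, whose called genes were all named, and the biliary gene Cftr. Some genes that this rule would name are not reported here. Replicate numbers showed no clear pairing of the samples: deviations from the group means correlated at 0.167, -0.063 and 0.185 between samples of the same number. Between samples of different number they reached 0.176, 0.095 and -0.063. For number 3 the same-number value was the higher, and such values cannot exclude pairing. Each number was also 1 slide column, with an array of each group. Alternatives were normexp on the spots' median signals (offset 50), other scalings, filters, probe means, the series table, a replicate block, another variance model and leaving out each array.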

Additional observations from a re-analysis of the deposited data

How the results depend on the processing

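Under the alternatives run, the number of tested members lower in PVBL was 13 with the 75th percentile and ranged from 1 to 14. It was 11 with normexp, 9 with quantile and 10 with median scaling, 14 with a variance trend or with probes above background on all 6 arrays, and 13 with probe means. The share of all genes called lower, 17.8% with the 75th percentile, moved too, to 16.6%, 15.9% and 11.5% with normexp, quantile and median scaling. Without a filter on dim probes 6 members and 7.90% of all genes were lower, with spike-in scaling 1 member and 1.23%, and with hepatocyte marker scaling 3 members and 3.25%. Of the members that the authors' table holds 8 of 8 were lower, but 97.5% of its genes were called and 52.4% called lower, so this count is nearly set by which genes the table holds. Members higher in PVBL numbered 3 with quantile scaling, against 17.2% of all genes, 5 with hepatocyte marker scaling, against 36.8%, and 0 with spike-in scaling, without the filter and in the authors' table. The replicate block, for numbers that showed no clear pairing, gave 10 lower and 0 higher members and 3804 genes called, against 4476 without it. Spike-in scaling gave 1643 genes called. Leaving out 1 array gave 2391 genes called (without sham 1) to 4782 (without PVBL 3), 5 to 14 lower members (7.84% to 18.8% of all genes) and 0 to 1 higher, and 5 of the 14 called members kept their call in all 6 of these fits. The median of the hepatocyte-made members was -0.062 with spike-in scaling, -0.73 in the authors' table and 0.00096 with hepatocyte marker scaling, and that of the macrophage-made members 0.0087 with spike-in and 0.072 with hepatocyte marker scaling. Without 1 array these medians ranged from -0.61 to -0.43 and from -0.86 to -0.17. Members turned above 0 with spike-in scaling were C1qb (0.011), C3 (0.15), Cfb (0.30), Cfp (0.0087), C8a (0.17), Cfi (0.087) and C3ar1 (0.096). With hepatocyte marker scaling they were C1qb (0.075), C1qc (0.061), C1s1 (0.013), C3 (0.21), Cfb (0.37), Cfp (0.072), C8a (0.23), Cfi (0.15), Vtn (0.00096) and C3ar1 (0.16). With quantile scaling C3 (0.16) and Cfb (0.21) turned, with median scaling Cfb (0.0037), and with probe means C8a (0.037). Without 1 array Masp1 ranged from -0.059 to 0.23, Clu from -0.0073 to 0.11 and C3ar1 from -0.65 to 0.11. The cause of these changes was not tested. A slide block was not run because all arrays lay on 1 slide, and C3ar1, above background on 2 of 3 PVBL arrays, and C5ar1 are limited by their signal.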
